A study of Mus musculus with 768 samples.

Results

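The clustered histone genes of Schwann cells (SCs), the glia that ensheathe and myelinate peripheral axons, were followed from cycling cells to myelinating cells (mSCs) in the sciatic nerve of mouse pups at postnatal day 5. A gene was a member when its GENCODE vM21 symbol began with Hist1h, Hist2h, Hist3h or Hist4h, and 67 of the 25700 genes in the count table were members. The annotation holds 70 such symbols, and the 3 that are not in the table are pseudogenes. The cells came from P0Cre:ReYFP mice that also carried βAct-DsRed, on a C57bl/6J background, and single eYFP-positive cells went into the wells of 2 plates (384 wells each), where Smart-Seq2 libraries were made. Smart-Seq2 covers the length of a transcript and primes cDNA on its poly(A) tail. The reporter marks every cell in which the P0 promoter had driven Cre, so it is a lineage label and not a marker of myelination. All cells share these alleles and this age, and no animal was treated. The cells of a plate were pooled from 1 male and 1 female mouse, with other animals for the other plate, so a plate is 1 biological replicate and every comparison between states has n = 2 plates.

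Wells with at least 1500 detected genes outside the plate corners were used, which left 655 of 768 wells. A well was called cycling when at least 3 of 10 mitotic genes (Mki67, Top2a, Cdk1, Birc5, Ccnb1, Ccna2, Aurkb, Ube2c, Tpx2 and Cenpf) had 5 reads or more. The remaining wells were immature with Ncmap under 10 counts per 1000000 reads (CPM), intermediate with Pmp22 under 30000 CPM, and myelinating otherwise. No member was used to set a state. Plate 1 held 32 cycling, 106 immature, 79 intermediate and 108 myelinating wells, and plate 2 held 25, 122, 70 and 113. Reads were summed over the wells of each state and plate, and these 8 sums held 13925435 to 98479212 reads. At least 3 genes of a 6-gene list of myelinating SCs, which holds Pmp22 and Ncmap, reached 5 reads in 652 of the 655 wells (99.5%). This list was thus met in wells of every state and does not separate them. A 5-gene list of immature SCs met the limit in 163 wells (24.9%), and how these fall among the states is not given here. The same limit was met for a fibroblast-like list in 22 wells, while for lists of endothelial, immune, mural, neuronal and muscle cells it was met in 0 of the 655, where a count of 0 still permits 0.458% of wells (3 wells). How much the 22 wells contribute to the values below was not tested.

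Clustered histone genes encode the histones H2A, H2B, H3 and H4, which form the nucleosome core, and the linker histone H1. Most are transcribed while DNA is copied, and their mRNAs usually end in a stem-loop that stem-loop binding protein (Slbp) recognises, in place of a poly(A) tail. A minority is also made as polyadenylated mRNA outside S phase, and replacement histones encoded elsewhere in the genome supply chromatin in cells that do not divide. Because the protocol primes on poly(A) tails, the levels given here are those of histone RNA that could be primed in this way, and the amount of tail-less histone mRNA was not measured.

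The members lie in 5 groups along 4 chromosomes, in GRCm38 coordinates. The 54 Hist1 genes occupy chromosome 13 in 2 stretches, 23 genes between positions 21715763 and 22043676 and 31 genes between 23531050 and 23934851. The 10 Hist2 genes lie on chromosome 3 between 96219865 and 96270132, the 2 Hist3 genes on chromosome 11 between 58948920 and 58956830, and Hist4h4 on chromosome 6. By family there were 6 H1, 18 H2A, 18 H2B, 12 H3 and 13 H4 genes, and all 67 are annotated as protein coding.

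The annotated transcripts were searched for the histone stem-loop, a run of 16 bases with a perfect 6-base stem that starts with GG and a loop that starts with TT. It was present in 44 of 67 members (65.7%) and in 0.255% of the 55383 other annotated genes. The stem-loops of 5 members are shown because these members stand for the patterns described below, with the 16 bases in capitals and the strand of the mRNA.
Hist1h2ao: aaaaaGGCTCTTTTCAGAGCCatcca
Hist1h2ap: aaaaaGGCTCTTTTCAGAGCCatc
Hist1h4d: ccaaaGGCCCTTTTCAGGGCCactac
Hist1h2be: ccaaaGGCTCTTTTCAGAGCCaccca
Hist2h2aa2: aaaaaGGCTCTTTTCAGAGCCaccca
The annotated transcript ran on for 31 bases after the stem-loop in Hist1h2ao, 3 in Hist1h2ap and 35 in Hist2h2aa2, and for 770 bases in Hist1h4d and 1861 in Hist1h2be. In 22 members the annotated transcript ended within 100 bases of the stem-loop, in 22 it extended further, and in 23 no stem-loop of this form was found. Several of the 23 have short annotated transcripts, such as Hist1h4k at 312 and Hist1h2bl at 381 bases. These may stop before the part of the mRNA that would hold a stem-loop, so its absence there is not shown. These letters describe the annotation, and which end the RNA had in these cells was not measured.

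Summed over the 67 members, the level was 4278 and 6189 CPM in the cycling wells of plates 1 and 2. It was 1254 and 1235 CPM in immature wells, 1018 and 1106 CPM in intermediate wells and 1355 and 1295 CPM in myelinating wells. The cycling wells therefore stood above the other states in each plate, and the other sums lay between 1018 and 1355 CPM. In a sum, more cells with a gene and more RNA per cell cannot be told apart. The families differed in their summed level, which was not tested. H2A genes were at a mean of 216 CPM in immature and 3501 CPM in cycling wells, H4 genes at 38.8 and 276 CPM and H3 genes at 9.59 and 115 CPM. H2B genes were at 695 and 1014 CPM and H1 genes at 285 and 328 CPM.

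The members were sorted by level into 3 descriptive classes. In 19 members, called cycling-linked, the level in cycling wells was at least 8 times that of the highest other state in each plate, and 1.09% of all 16504 genes with reads met this limit. Another 7 members, called flat, had at least 20 CPM over the non-cycling states and state means within 4-fold of each other. Only 8 members reached 20 CPM outside the cycle, and of all genes at that level 84.4% were flat in this sense, so flatness itself is common. The remaining 41 members met neither limit, most of them at a low level. The classes use the cycling contrast itself, so the difference between them is a description.

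**Figure D1:**
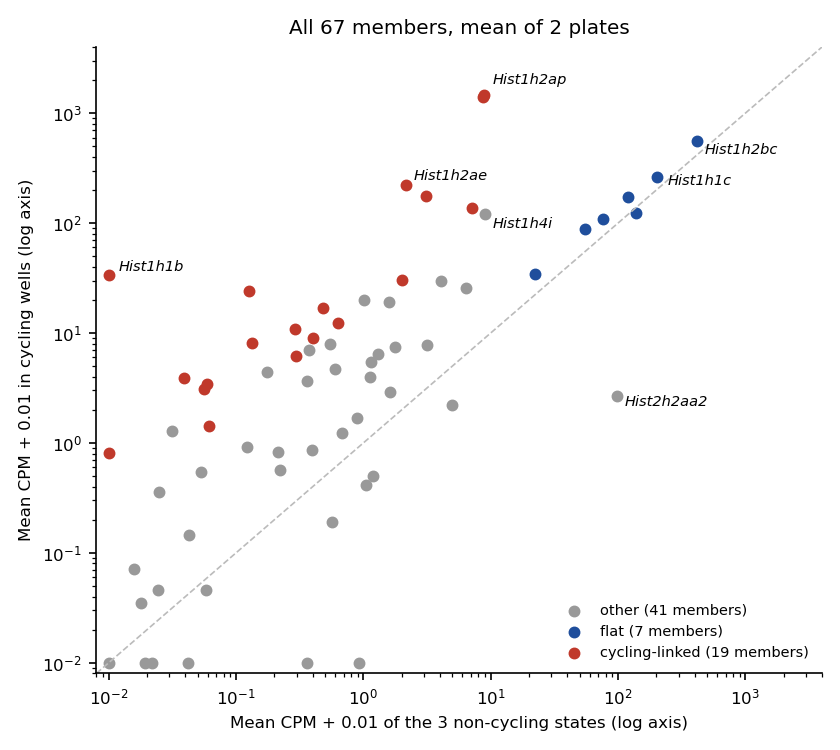
Level of each of the 67 members in cycling wells (vertical, mean CPM of 2 plates plus 0.01, log axis) against its mean over the 3 non-cycling states (horizontal, same unit, log axis), with the dashed line where both are equal. Cycling-linked members (red) lie far above the line, the 7 flat members (blue) lie near it at 20 CPM or more, and Hist2h2aa2 lies far below it.

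The edgeR quasi-likelihood test could be applied to 54 members, since 13 had too few reads. Cycling wells were higher than the mean of the other 3 states in 17 members, where 6.9% of all 13904 genes tested were higher, and lower in 1 member, where 5.95% of genes were lower. A member could enter the test through the cycling wells alone, so the 17 are not a share of all members. Of the 17, 13 were cycling-linked. Against immature wells alone, 5 members were higher (Hist1h2ao, Hist1h2ap, Hist1h2ae, Hist1h4d and Hist1h1b) and Hist2h2aa2 was lower. With the plate as replicate block, 13 members were higher, and Hist2h3c1, Hist1h4m, Hist1h2af and Hist1h3c passed only without it, at adjusted p = 0.0797, 0.0661, 0.0632 and 0.0638 with the block (edgeR). The shares of all genes called against immature wells alone and with the block are not given here. Whether the loss of calls is particular to the members was not tested.

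Most member reads of cycling wells beyond those of the other states were of 2 nearly identical H2A genes, Hist1h2ao (ENSMUSG00000094248, chromosome 13, 21810465 to 21810944, plus strand) and Hist1h2ap (ENSMUSG00000094777, chromosome 13, 21833026 to 21833507, minus strand). Hist1h2ao was at 923 and 1909 CPM in cycling wells of plates 1 and 2, at 14.9 and 15.9 CPM in immature wells, at 7.06 and 10.4 CPM in intermediate wells and at 1.16 and 2.80 CPM in myelinating wells. Hist1h2ap was at 987 and 1961 CPM, 15.1 and 15.6 CPM, 7.72 and 10.8 CPM, and 1.04 and 3.23 CPM in the same order. The states did not overlap between plates in either gene, and the order ran from cycling through immature and intermediate to myelinating. The difference between cycling wells and the other states was 7.72 ± 0.35 on the log2 scale for Hist1h2ao (SE, edgeR adjusted p = 5.06e-06) and 7.71 ± 0.39 for Hist1h2ap (adjusted p = 7.27e-06). Their annotated transcripts share 93.5% of the 50-base words of the shorter, and over 182 wells with at least 10 reads of the pair the pooled ratio of Hist1h2ap to Hist1h2ao was 1.04. The division of reads between them is therefore uncertain, and they are best read as a pair.

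Other H2A genes were also highest in cycling wells. Hist1h2ae was at 129 and 317 CPM in cycling wells and at no more than 4.27 CPM in any other sum, a log2 difference of 6.89 ± 0.44 (SE, edgeR adjusted p = 2.54e-05). Hist1h2ac was at 137 and 217 CPM in cycling wells and at 11.4 CPM or less elsewhere, and a single well held 36.1% of its reads in immature wells. Its log2 difference was 6.31 ± 0.76 (edgeR adjusted p = 0.000918), and against immature wells alone it was 4.81 with an adjusted p of 0.0700. Hist1h2ag was at 10.5 and 37.4 CPM in cycling wells and at 0.408 CPM or less elsewhere. In all, 11 of the 18 H2A genes were cycling-linked. Most of these belong, with Hist1h2ao and Hist1h2ap, to 1 group of H2A genes linked through at least 50% of the 50-base words of the shorter. Hist1h2ah, for example, shares 73.3% with Hist1h2ao and was at only 0.654 and 0.934 CPM in cycling wells. How many reads of such members come from Hist1h2ao or Hist1h2ap was not tested, so the count may not be one of separate genes. Set beside the length of the transcript, Hist1h2ap and Hist1h2ao were at 3058 and 2950 CPM per kb in cycling wells, Hist1h2ae at 317 CPM per kb and Hist1h2ac at 71.3 CPM per kb.

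Among the linker histones, Hist1h1b, which encodes H1.5, was read in cycling wells alone. It had 747 and 410 reads in the cycling sums, or 37.6 and 29.4 CPM, and 0 reads in each of the 6 other sums. Against a floor of 3 reads in the shallowest of those sums of the same plate, this is at least 587-fold higher in plate 1 and at least 409-fold higher in plate 2 (edgeR adjusted p = 0.00122). It reached 5 reads in 14 of 57 cycling wells (24.6%, exact 95% interval 14.1 to 37.8%) and in 0 of 228 immature, 0 of 149 intermediate and 0 of 221 myelinating wells, where a count of 0 permits no more than 2.01% in any of these states on the same basis of 3 wells. Hist1h1e (H1.4) was at 36.1 and 15.2 CPM in cycling wells and between 3.58 and 8.17 CPM elsewhere, a log2 difference of 1.94 ± 0.64 that did not pass (edgeR adjusted p = 0.0841). Its annotated locus overlaps that of Hist1h2be on the same strand.

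H3 and H4 genes had fewer reads. Hist2h3c2 was at 17.5 and 43.6 CPM in cycling wells and at 0.297 to 5.09 CPM elsewhere, and differed by 4.14 ± 0.91 (edgeR adjusted p = 0.0194). Hist2h3c1 was at 22.5 and 37.1 CPM in cycling wells and at 1.03 to 9.01 CPM elsewhere (2.93 ± 0.81, adjusted p = 0.0468). Hist1h3d stood at 38.4 CPM in cycling wells of plate 1 and 0.0718 CPM in those of plate 2, and did not pass (adjusted p = 0.0862). The plates thus disagreed for Hist1h3d, and 33.6% of its cycling reads lay in 1 well.

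Of the H4 genes, Hist1h4d was at 96.6 and 180 CPM in cycling wells and at 3.31 to 11.3 CPM elsewhere, with a log2 difference of 4.23 ± 0.45 (edgeR adjusted p = 0.000509). Hist1h4i was at 74.1 and 167 CPM in cycling wells, and elsewhere between 0.0213 CPM in intermediate wells of plate 1 and 25.3 CPM in immature wells of plate 2. It passed the test at 4.19 ± 0.96 (adjusted p = 0.0224), but was 6.61 times its highest other state in plate 2 and so fell just outside the cycling-linked class, while Hist2h3c2, at 8.56 times in plate 2, fell just inside. Against immature wells alone Hist1h4i did not pass (log2 difference 3.01, adjusted p = 0.344). Hist1h4h was at 4.43 and 0 CPM in cycling wells and at 2.71 to 8.98 CPM elsewhere.

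**Figure D2:**
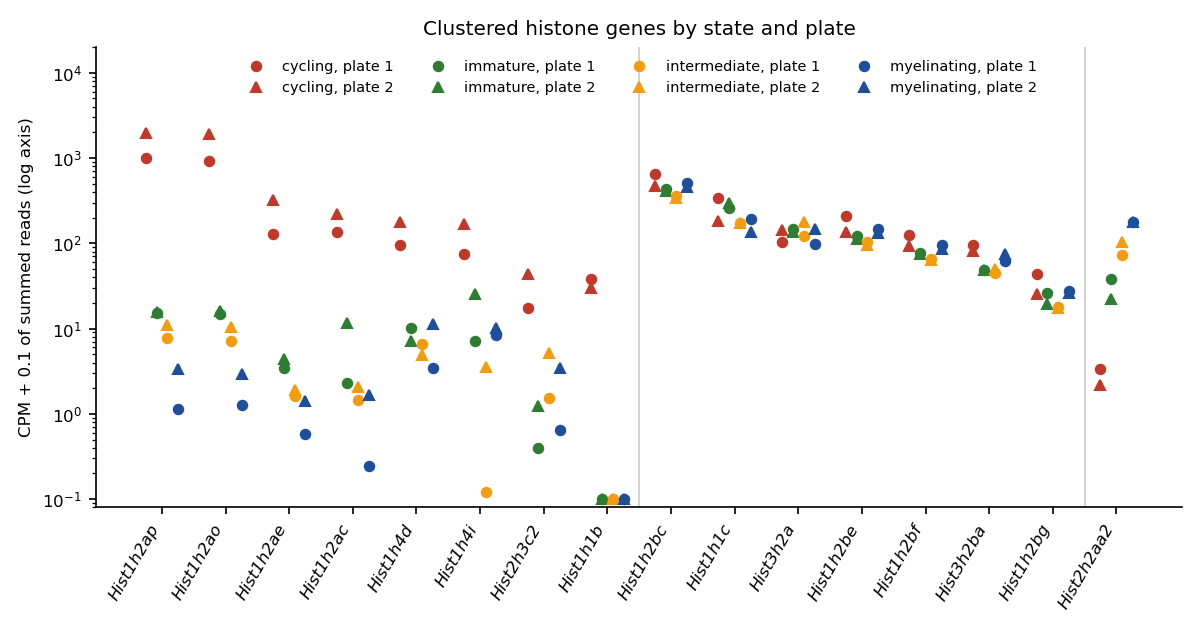
Level of 16 members in the reads summed per plate and state (CPM plus 0.1, log axis), with circles for plate 1 and triangles for plate 2 and 1 colour per state. The 8 members at the left are highest in cycling wells in each plate, the 7 flat members in the middle lie close together across states, and Hist2h2aa2 at the right is lowest in cycling wells and highest in myelinating wells.

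The levels varied widely from well to well within a state. The cycling-linked members together ranged from 2.61 to 14162 CPM over the cycling wells of plate 1, with a median of 809 CPM, and from 0 to 10921 CPM in plate 2, with a median of 3701 CPM. At least 1000 CPM of them was found in 15 of 32 and 19 of 25 cycling wells, and in 1 of the 598 other wells. That well was an immature well of plate 1 at 2420 CPM. Of the 4 non-cycling wells past a limit of 500 CPM, all immature, 3 held under 100000 reads and the shallowest held 3306. At such depth a high CPM can stand for few reads. Medians in the other states were 7.96 and 7.26 CPM in immature wells, 1.26 and 4.05 CPM in intermediate wells and 0.707 and 1.79 CPM in myelinating wells. Hist1h2ao reached 5 reads in 47 of 57 cycling wells (82.5%, exact 95% interval 70.1 to 91.3%) and in 75 of 228 immature (32.9%, 26.8 to 39.4%), 41 of 149 intermediate (27.5%, 20.5 to 35.4%) and 22 of 221 myelinating wells (9.95%, 6.34 to 14.7%). Myelinating wells were read more deeply than immature wells. After each well was thinned to 100000 reads, at least 1 read of Hist1h2ao was found in 85.5%, 34.4%, 29.1% and 9.59% of the wells of the 4 states in the same order. The intervals cover counting error only, and wells of a plate are not independent animals.

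**Figure D3:**
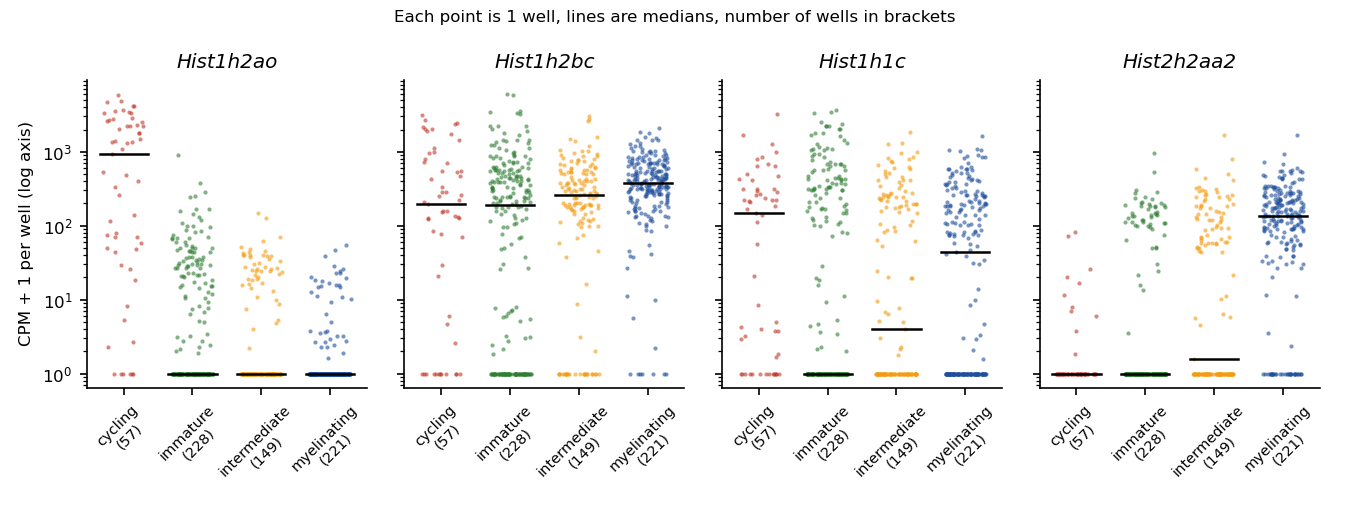
Level of 4 members in each used well (CPM plus 1, log axis) by state, with the median as a black line and the number of wells in brackets. Hist1h2ao is high in most cycling wells and at 0 in most others, Hist1h2bc and Hist1h1c range from 0 to over 1000 CPM in every state, and the median of Hist2h2aa2 is at 135 CPM in myelinating wells and at 0 in cycling and immature wells.

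The 7 flat members were the H2B genes Hist1h2bc, Hist1h2be, Hist1h2bf, Hist1h2bg and Hist3h2ba, the H2A gene Hist3h2a and the linker histone gene Hist1h1c, which encodes H1.2. Hist1h2bc (ENSMUSG00000018102, chromosome 13, 23684199 to 23692908, plus strand) had the most reads of all members outside the cycle. It was at 649 and 473 CPM in cycling wells, 435 and 405 CPM in immature wells, 355 and 341 CPM in intermediate wells and 509 and 456 CPM in myelinating wells. Cycling and myelinating values overlapped, immature values lay below both, and intermediate values were lowest. Hist1h1c was at 344 and 183 CPM in cycling wells, 256 and 296 CPM in immature wells, 172 and 171 CPM in intermediate wells and 193 and 134 CPM in myelinating wells. Hist3h2a was at 104 and 141 CPM, 147 and 136 CPM, 123 and 179 CPM, and 97.5 and 146 CPM in the same order. Together the 7 held 1569 and 1131 CPM in cycling wells and between 883 and 1129 CPM in every other sum. The sums, not the shares of wells with reads, were flat. Hist1h2bc reached 5 reads in 61.4% of immature (exact 95% interval 54.8 to 67.8%), 80.5% of intermediate and 96.4% of myelinating wells (93.0 to 98.4%). After thinning, it was found in 62.8% of immature and 95.9% of myelinating wells. At 5 reads, Hist1h2be rose from 59.2% of immature to 91.9% of myelinating wells and Hist3h2a from 39.5% to 65.2%. Hist3h2ba rose from 34.6% to 57.0% and Hist1h1c from 40.8% to 53.4%.

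No flat member passed in the cycling comparison (edgeR), where 3 of them had an unadjusted p under 0.05. The log2 difference of Hist1h2bc was 0.37 (95% interval 0.05 to 0.69, adjusted p = 0.135), that of Hist1h1c 0.34 (-0.21 to 0.88, adjusted p = 0.407) and that of Hist3h2a -0.23 (-0.79 to 0.32, adjusted p = 0.595). The interval of Hist1h2bg was widest (-0.34 to 1.47), so equal levels were not shown. The direction depended on how strictly a cycling well was defined. With 5 or more mitotic genes required in place of 3, the difference of Hist1h2bc was -0.46 (adjusted p = 0.0634), and with 2 or more required it was 0.67 (adjusted p = 0.0116).

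Reads of the flat Hist1 H2B genes were compared in 3 pairs. Over 493 wells with at least 10 reads of the pair, Hist1h2bf had 0.644 reads for each read of Hist1h2be, and this ratio varied by no more than counting error would give, with a chi-square of 1.08 per degree of freedom. For Hist1h2be against Hist1h2bc the pooled ratio was 0.288 with a chi-square of 4.01 per degree of freedom over 511 wells. For Hist1h2bg against Hist1h2bf these were 0.294 and 2.90 over 476 wells. Hist1h2bc against Hist1h1c, which are also flat but unlike in sequence, gave 184 per degree of freedom over 553 wells. Likeness in sequence did not always go with a steady ratio. Hist2h3c1 and Hist2h3c2 share 63.5% of the 50-base words of the shorter and gave 25.2 over 51 wells. Hist1h2ac and Hist1h2ae share 30.4% and gave 30.5 over 79 wells. In annotated transcripts, Hist1h2be and Hist1h2bf share 25.2% and Hist1h2bc and Hist1h2be 17.8% of the 50-base words of the shorter, while Hist3h2ba shares 0% with any member. Whether reads of these H2B genes come from 1 gene or several was not tested. Hist3h2a overlaps Trim17 on the same strand, and reads of Trim17 followed those of Hist3h2a at a ratio of 0.844 with a chi-square of 2.45 per degree of freedom over 344 wells, so that the division between these 2 genes is uncertain as well.

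**Figure D4:**
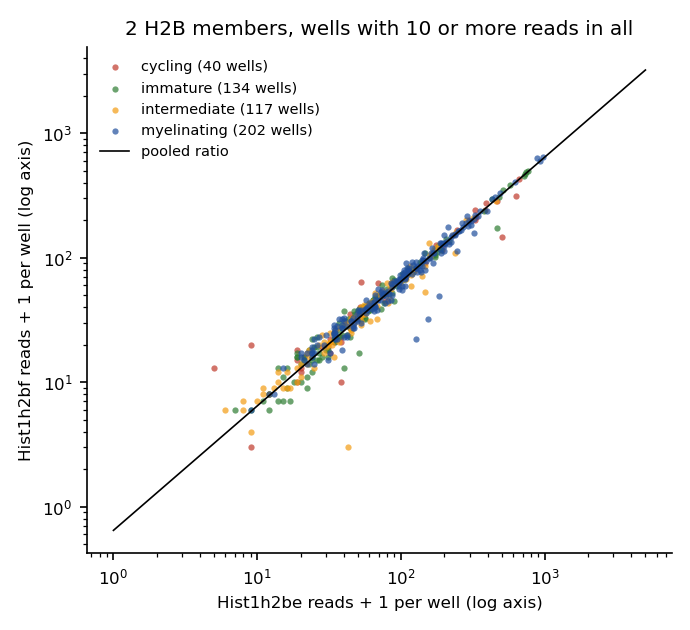
Reads of Hist1h2bf against reads of Hist1h2be in each of the 493 wells with at least 10 reads of the pair (both plus 1, log axes), coloured by state, with a line at the pooled ratio of 0.644. Wells of all 4 states lie along the same line over more than 2 orders of magnitude.

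Within the cycling wells, the level of the flat members was set beside that of S phase genes. A list of 20 S phase genes (Mcm2 to Mcm7, Pcna, Rrm1, Rrm2 and others of DNA replication) was summed in each cycling well. Where it was under 500 CPM, Hist1h2bc had a median of 1834 CPM in 10 wells of plate 1 (199 to 2456 CPM) and of 514 CPM in 6 wells of plate 2 (0 to 3186 CPM). Where it was at or above 4000 CPM, Hist1h2bc had a median of 28.2 CPM in 11 wells of plate 1 (0 to 260 CPM) and of 5.11 CPM in 5 wells of plate 2 (0 to 463 CPM). The ranges overlapped, most widely in plate 2. In the same wells the cycling-linked members ran the other way, from a median of 132 and 791 CPM at a low S phase sum to 3176 and 6702 CPM at a high one. Between the limits, in 11 wells of plate 1 and 14 of plate 2, their medians were 4050 and 6396 CPM. The rise thus lay between the low and the middle wells, and in plate 1 the middle median exceeded the high one. Hist1h2bc had medians of 253 and 157 CPM in the middle wells. The limits of 500 and 4000 CPM were chosen after these values were seen. Over the 32 and 25 cycling wells, the log2 correlation with the S phase sum was -0.631 and -0.496 for the sum of the flat members and 0.46 and 0.53 for the cycling-linked members. Within the flat sum it was -0.681 and -0.415 for Hist1h2bc and only -0.220 and -0.228 for Hist1h1c. With the sum of the 10 mitotic genes it was -0.00435 and 0.0476 for the flat and 0.400 and 0.389 for the cycling-linked members. These correlations are over wells of 1 plate each, which share library and animals, and are given as a description.

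**Figure D5:**
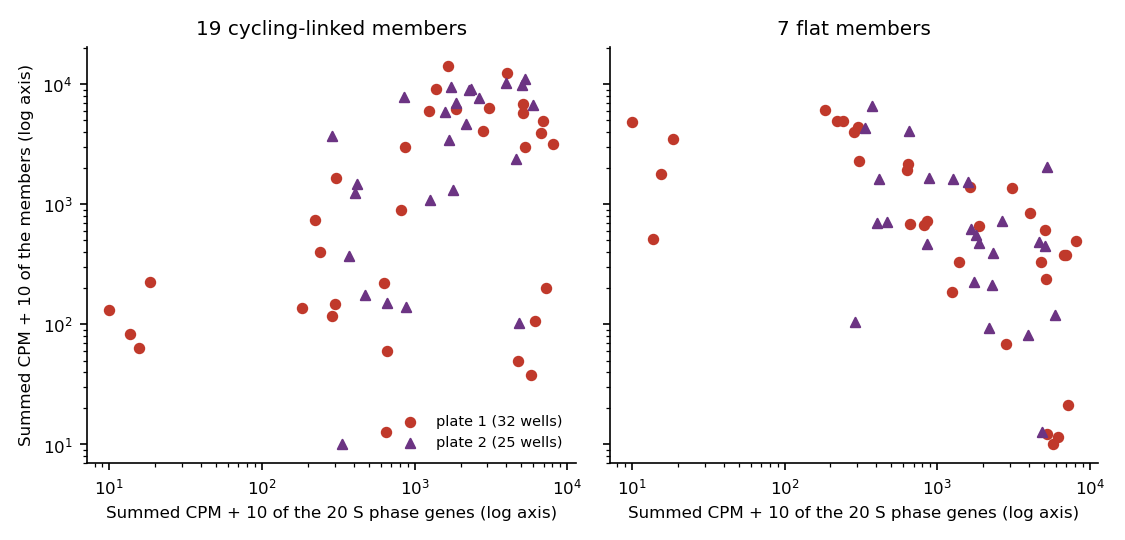
Summed CPM plus 10 of the 19 cycling-linked members (left) and of the 7 flat members (right) in each cycling well against the summed CPM plus 10 of 20 S phase genes (log axes), with circles for the 32 wells of plate 1 and triangles for the 25 of plate 2. The flat members are lower toward the right, and the cycling-linked members are high in most wells at 1000 CPM or more of the S phase genes apart from a few wells at the lower right.

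A test over plates used the balance of the lists. Cycling wells whose S phase sum exceeded the sum of the mitotic genes were called S-weighted (9 wells in plate 1 and 2 in plate 2) and the others G2/M-weighted (23 wells in each plate). Hist1h2bc was at 66.6 and 1.58 CPM in S-weighted wells and at 980 and 496 CPM in G2/M-weighted wells, and the groups did not overlap. The log2 difference was -4.42 ± 1.06 (SE), and it did not pass over all genes (edgeR adjusted p = 0.0771, between 0.00156 and 0.311 under the alternatives). Hist1h2be was at 17.6 and 1.58 CPM against 321 and 141 CPM (adjusted p = 0.0543). Hist1h1c was at 135 and 4.75 CPM against 463 and 191 CPM (adjusted p = 0.310). No member passed in either direction in this comparison (edgeR), where 0.0793% of 13870 genes were higher and 0.988% lower. At an unadjusted p under 0.05, 11 members were lower and 0 higher, 6 of the 11 flat, and DESeq2 called 10 lower and 1 higher. The shares of all genes at these limits are not given here. The median log2 difference was -1.61 over the members tested and -0.38 over all genes. Flat H2B genes whose reads may be shared were counted singly. The S-weighted sum of plate 2 rests on 2 wells and 631494 reads, so its spread is poorly known. The values of 1.58 and 4.75 CPM in it stand for very few reads, close to the lowest level that this depth can give. The size of the differences in plate 2 rests on this floor.

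Hist1h2ao did not separate these groups, with 1128 and 1153 CPM in S-weighted and 807 and 1945 CPM in G2/M-weighted wells (log2 difference -0.54 ± 0.48, edgeR adjusted p = 0.618). Divided at the median of the S phase share instead, the difference was 0.84 with the opposite sign. Some wells had many S phase reads but few of the cycling-linked members. In 5 S-weighted wells the cycling-linked members were under 200 CPM in all, and 16 immature wells had at least 2000 CPM of the S phase list, of which the 8 in plate 1 held a median of 1.90 CPM of the cycling-linked members and the 8 in plate 2 a median of 37.5 CPM. The limit of 2000 CPM was chosen after seeing the data, and these 16 wells had no more than 937 CPM of the flat members.

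Hist2h2aa2, an H2A gene of the Hist2 group (ENSMUSG00000063954, chromosome 3, 96239749 to 96240276, minus strand), was the 1 member called lower in cycling wells. It was at 3.27 and 2.08 CPM in cycling wells, 38.0 and 22.4 CPM in immature wells, 72.6 and 103 CPM in intermediate wells and 179 and 176 CPM in myelinating wells. The 4 states did not overlap, and the level was higher at each step from cycling to myelinating wells. It was lower in cycling wells than in the other states (log2 difference -4.92 ± 0.40, SE, edgeR adjusted p = 0.000108), and higher in myelinating than in immature wells (2.94 ± 0.38, adjusted p = 0.00224). The step from immature to intermediate wells was 1.68 ± 0.36 and did not pass (adjusted p = 0.0563), but passed in 4 of 8 alternatives. At least 5 reads were found in 4 of 57 cycling wells (7.02%), 22.4% of immature (exact 95% interval 17.1 to 28.3%), 46.3% of intermediate (38.1 to 54.7%) and 83.7% of myelinating wells (78.2 to 88.3%), and at least 1 read in 14.5%, 22.5%, 48.9% and 84.0% after thinning. Its neighbour Hist2h2aa1 holds 100% of the 50-base words of Hist2h2aa2, which in turn holds 89.2% of those of Hist2h2aa1. Hist2h2aa1 was at 0 and 0.359 CPM in cycling wells and at 0.751 CPM or more in myelinating wells, with no call (edgeR adjusted p = 0.755 against immature wells). The table held 181 reads of Hist2h2aa2 for each read of Hist2h2aa1, so how reads common to both were assigned bears on this value and was not tested. Hist2h2aa2 also overlaps the annotated Gm20632.

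Of the 54 members tested, 1 was higher in myelinating than in immature wells (Hist2h2aa2, where 2.6% of genes were higher) and 2 were lower, where 2.54% of genes were lower. The 2 were Hist1h2ao, which fell by 2.58 ± 0.46 on the log2 scale (SE, edgeR adjusted p = 0.0129), and Hist1h2ap, which fell by 2.47 ± 0.51 (adjusted p = 0.0241). Both passed under every alternative fit that tested them. Other limits for a cycling well were not tried in this comparison. How far cycling cells left among the immature wells bear on it was not tested. The flat members Hist1h2bc, Hist1h2be, Hist1h2bf and Hist3h2ba lay 0.58 to 0.87 higher on the log2 scale in myelinating wells with unadjusted p under 0.05, and none passed (adjusted p = 0.125, 0.273, 0.276 and 0.159, edgeR). Between intermediate and immature wells no member passed (edgeR), where 0.985% of genes were higher and 1.01% lower. At an unadjusted p under 0.05, 3 members were higher and 0 lower, and DESeq2 called 3 higher. The shares of all genes at these limits are not given here.

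H2A and H2B genes often stand head to head in the clusters and share the sequence between their starts, and 12 such pairs were found among the members. In 3 of them a cycling-linked H2A gene faced a flat H2B gene. Hist1h2ac, at a mean of 177 CPM in cycling wells and 3.10 CPM elsewhere, starts 250 bases from Hist1h2bc, at 561 and 417 CPM. Hist1h2ae, at 223 and 2.13 CPM, starts 175 bases from Hist1h2bg, at 34.2 and 22.3 CPM. Hist1h2ad, at 10.9 and 0.281 CPM, starts 184 bases from Hist1h2bf, at 108 and 76.9 CPM. These pairs were picked by class, which the same values set, and the reads of Hist1h2bc, Hist1h2bf and Hist1h2bg may be shared, so the contrast is a description. In the other pairs with a cycling-linked member the partner had at most 7.73 CPM in cycling wells.

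The 250 bases upstream of Hist1h2ac are shown because they cover most of the interval between the GENCODE starts of this pair and end just inside the annotated start of Hist1h2bc. They were taken from RefSeq (GRCm38.p6, chr13:23683960-23684209, minus strand). Capitals mark the word CCAAT, the TATAAA box and the octamer ATTTGCAT, on either strand.
Hist1h2ac: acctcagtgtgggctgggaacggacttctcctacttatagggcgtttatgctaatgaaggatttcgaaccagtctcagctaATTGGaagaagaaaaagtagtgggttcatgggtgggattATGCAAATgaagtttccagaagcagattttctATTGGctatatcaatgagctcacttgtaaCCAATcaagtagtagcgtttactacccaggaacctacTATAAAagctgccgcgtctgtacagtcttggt
This stretch holds the CCAAT word 3 times, the octamer once and TATAAA once. Of the 61 members with a RefSeq upstream sequence at their own start, 82% held CCAAT, 45.9% TATAAA and 21.3% the octamer within 250 bases, beside 33.8%, 12.4% and 1.6% of all 32851 promoters of that length. The octamer was found upstream of 7 of 18 H2A and 6 of 16 H2B genes and of 0 H1, H3 and H4 genes. The words were about as frequent in the cycling-linked class (CCAAT in 89.5%, TATAAA in 47.4% and the octamer in 26.3% of 19) as in the flat class (100%, 50% and 33.3% of 6). The classes are not separate here, since Hist1h2ac, Hist1h2ae and Hist1h2ad start 250, 175 and 184 bases from the flat Hist1h2bc, Hist1h2bg and Hist1h2bf. The same words can be counted in both classes, so this likeness cannot show whether the classes differ. A match of letters is a description and shows no bound factor.

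Of the 19 cycling-linked members, 8 have a transcript that ends within 100 bases of a stem-loop, 5 have one that extends further and 6 showed no stem-loop, while of the 7 flat members the numbers were 1, 5 and 1. A polyadenylation hexamer in the last 60 bases was annotated in 1 cycling-linked member (Hist1h2ae) and in 4 flat members. Where the annotated transcript may stop short of the mRNA end, as in Hist1h2ai and Hist1h2an at 393 bases each, a stem-loop or hexamer could be missed. With classes of this size these are counts only.

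Replacement histones, which are encoded outside the clusters and deposited also without DNA replication, were higher in cycling wells in 8 of 11 genes and lower in 0 (edgeR), beside 6.9% of all genes higher. H2afx, whose product marks DNA breaks when phosphorylated, was at 593 and 1111 CPM in cycling wells and at no more than 40.4 CPM elsewhere (log2 difference 4.80 ± 0.23, adjusted p = 6.02e-06). H2afz was at 2815 and 3375 CPM against 274 to 534 CPM (2.99 ± 0.14, adjusted p = 5.04e-06), and Cenpa, the centromeric H3, at 805 and 936 CPM against 1.41 to 19.3 CPM (7.11 ± 0.29, adjusted p = 3.58e-06). H2afv (2.78), H1f0 (2.00), H2afy (1.40), H3f3b (1.16) and H3f3a (0.77) rose less on the log2 scale. H3f3b, which encodes H3.3, was at 5116 and 5496 CPM in cycling wells and fell from 3290 and 3553 CPM in immature to 1510 and 1338 CPM in myelinating wells (-0.88 ± 0.12, adjusted p = 0.00296). H1f0, Cenpa and H2afv were also lower in myelinating than in immature wells, while H2afj (-0.18 in the cycling comparison, adjusted p = 0.551) was at 146 to 187 CPM in every sum.

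Of 12 genes for histone mRNA processing and transcription, 1 passed in the cycling comparison, a share near the 6.9% of all genes. This was Slbp, at 198 and 163 CPM in cycling wells and 11.9 to 45.9 CPM elsewhere (2.70 ± 0.32, edgeR adjusted p = 0.000842). Npat, the coactivator of histone gene transcription, was at 14.9 and 27.1 CPM against 1.87 to 8.91 CPM and did not pass (1.76 ± 0.73, adjusted p = 0.161). Of 12 histone chaperones and supply factors, 5 were higher in cycling wells and 0 lower, namely Asf1b (6.80), Hjurp (3.04), Hat1 (1.75), Nasp (1.45) and Asf1a (1.06) on the log2 scale, beside the same 6.9%. H3f3a, Hat1, Nasp and Asf1a missed the threshold against immature wells alone, at adjusted p = 0.151, 0.115, 0.134 and 0.518 (edgeR).

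The remaining members gave few reads. Hist1h2ba had 0 reads in all used wells, and 11 members stayed under 1 CPM in each of the 8 sums. Of these 11, 10 were not tested. The other was Hist1h2ah, with 13 and 13 reads in the cycling sums and 0 in the other sums, which is at least 10.2-fold and at least 13-fold higher against a floor of 3 reads, and it did not pass (edgeR adjusted p = 0.0759). Over all wells Hist1h2ah had 172 reads, so most of its reads lay in wells that were not used and have no state. Sequence sharing limits the whole family, since 60 of 67 members share at least a 50-base word with another member, and 44 of them fall into 7 groups linked by at least 50% of the words of the shorter member. When each group was summed before the fit, 24 units were tested and 8 were higher and 1 lower in cycling wells.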

How the data were processed

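Per the labels and the methods, the authors deposited raw read counts per gene and well. The submitters' processing notes name bcl2fastq, STAR 2.6.1c, featureCounts and GRCm38.p5. The methods name another STAR version, Rsubread's featureCounts, an Ensembl annotation and a human build, although the identifiers are of mouse. How reads that match several genes, overlapping genes or strands were counted is not given in the sources used here. Identifiers were matched to GENCODE vM21 (25587 of 25700 genes), and the 113 others held 0.0916% of reads. CPM is reads of a gene per 1000000 reads of the sum or well.

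The members, states and lists were chosen with earlier results of these data known. Named members are the 3 highest by mean CPM in each family, those called in the cycling comparison at 20 CPM or more, those called in another comparison, the flat members, and the nearest partner by sequence of each. Of the 31 so found, partners are described only where reads may be shared, and other members are named where a small count is spelled out or a pair is described, chosen after their values were seen. Used wells held a median of 593534 and 559286 reads in plates 1 and 2. Smart-Seq2 carries no molecular identifiers, so intervals and floors cover counting error only. No doublet caller was run.

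Reads were summed per plate and state and tested with edgeR 4.0.16 (R 4.3.3; TMM scaling, filterByExpr by state, quasi-likelihood F test, no plate term, Benjamini-Hochberg over all genes, threshold 0.05), in 1 fit of 8 sums and, for the S-weighted comparison, of 10 sums. Standard errors were taken as the size of the log2 difference over the square root of F. The script was tested on simulated data drawn with less spread than the fits estimated (common dispersion 0.713 for 8 sums and 0.948 for 10 sums). That test checks the working of the script and not its power in these data. Sums of a plate come from the same animals, so the plate pairs them. Over 1990 genes at 100 CPM or more, deviations of the states from their mean correlated at -0.0148 to 0.207 within a plate. Alternatives were DESeq2 1.42.0, its size factors, no filter, the plate as replicate block, 2500 genes per well, 100000 reads per well, other limits for each state, each plate left out and, added after seeing the data, shared-sequence members summed and plate columns 8 and 16, which were shallow, left out. A marker list of all SCs is not reported here.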

Additional observations from a re-analysis of the deposited data

Results flagged for a closer look

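Reads of the clustered histone genes were also found in wells that no comparison used. The 8 corner wells held 48 reads of members among 158513 reads, and 6 of the 48 were of cycling-linked members. The 105 other wells with fewer than 1500 detected genes held 7623 reads of members, or 1047 CPM, of which 3050 were of cycling-linked members. The labels give these wells no state.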

How the results depend on the processing

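The count of members called in the cycling comparison was 18 (17 higher and 1 lower), and 29 with DESeq2, 6 with immature wells as the only reference and 9 units when members of like sequence were summed. No member was called between intermediate and immature wells, where DESeq2 called 3, no filter on low counts 2, and a minimum of 2500 genes, leaving out columns 8 and 16, and summing like sequences 1 each. Between myelinating and immature wells 3 were called, 7 with DESeq2 and 5 with no filter. In the S-weighted comparison 0 were called, 11 with DESeq2, 4 with no filter, 2 after thinning and 1 with like sequences summed. With the replicate block (paired by plate), 14, 0, 3 and 0 members were called in the 4 comparisons, and over all genes in the S-weighted comparison 0 in place of 148. Apart from the S-weighted comparison with the block, calls over all genes under the alternatives are not given here. The cause of these differences was not tested.

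The log2 ratio of the summed CPM of all members, unscaled and with no test, was 2.36 without replicate 1 and 1.83 without replicate 2 in the cycling comparison, -0.16 and -0.30 for intermediate, 0.07 and 0.11 for myelinating, and -0.996 and -0.604 for S-weighted wells. With 5 or more mitotic genes, the cycling difference turned negative for Hist1h1c (-0.52), Hist1h2bc (-0.46), Hist1h2be (-0.31), Hist1h2bf (-0.34) and Hist1h2bg (-0.31). With 1 plate left out, which leaves no test, the difference of log2(CPM + 1) scaled by the TMM factors of the whole fit ranged from -0.0959 to 0.66 for Hist1h1c, from -1.30 to 4.42 for Hist1h3d and from -2.71 to 0.0286 for Hist1h4h, and the myelinating one of Hist3h2a from -0.20 to 0.47. The S-weighted difference turned positive when divided at the median for Hist1h2ac (0.72), Hist1h2ae (1.14), Hist1h2ao (0.84), Hist1h2ap (0.89) and Hist1h4d (0.57), and with 1 plate left out it ranged from -1.39 to 0.23 for Hist1h2ac, -0.73 to 0.0780 for Hist1h2ae, -1.25 to 0.41 for Hist1h2ao and -1.28 to 0.38 for Hist1h2ap. None of the turned differences that were tested passed the threshold.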
